A study of Mus musculus with 2 samples.

Results

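The regions described here were the intronic Foxf2-FLAG peaks that lay 10 to 100 kb from the nearest protein-coding transcription start in the mouse embryonic palate. A peak was taken when its centre was more than 10 kb and at most 100 kb from the nearest start of a protein-coding transcript, inside the body of a protein-coding gene and outside protein-coding exons. Of 9165 peaks in the deposited list, 1604 (17.5%) met these conditions, and position alone chose them, not tag number or sequence. The gene that contains such a peak is called the host below, and the gene whose start is closest is called the nearest-start gene.

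The peaks came from 1 chromatin immunoprecipitation (ChIP-seq) library made with an anti-FLAG antibody, set against 1 input library from the same kind of material. Per the labels, the tissue was palatal shelves of embryos at E13.5 (embryonic day), and both Foxf2 alleles of the embryos carried a 3xFLAG tag, which CRISPR/Cas9 had placed on the endogenous gene. Shelves of 50 pairs were pooled, so neither library had a replicate and no spread between embryos could be measured. ChIP of untagged embryos was not analysed here, so the input was the control. The ChIP library held 26849463 tags, of which 0.263% lay in the 1604 intronic peaks. The deposited ChIP tags scaled to the input put the input at about 19240000 tags. All p-values below compare peaks or genes within this 1 list, and all intervals cover counting error only.

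Foxf2 belongs to the forkhead transcription factors and acts in the mesenchyme, the tissue under the epithelium of the palatal shelves, and mice that lack it are born with cleft palate. Forkhead proteins bind DNA through a winged-helix domain that reads a short core of A and T letters flanked by more variable letters. Binding sites inside introns can belong to enhancers of the gene that contains them, but an intron can also hold an enhancer of a neighbouring gene, so the host and the nearest-start gene are both listed.

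The sequences that follow are from the intronic peaks with the highest peak-caller scores and from the highest-scoring peak of the host and nearest-start pairs with the most peaks, where a forkhead sequence lay in the central 200 bp. They are shown because they put the host, the neighbour and the forkhead sequence of the leading regions side by side. Each run is 67 bases of the mm9 reference (NCBIM37), written 5′ to 3′ on the strand of the forkhead sequence, and capitals mark the forkhead sequence itself. Where a peak held several, GTAAACA was taken first, and otherwise the one closest to the centre.
Wdr37, chr13:8829134-8829200, plus strand: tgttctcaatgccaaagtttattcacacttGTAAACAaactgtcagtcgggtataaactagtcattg
Col4a3, chr1:82638363-82638429, plus strand: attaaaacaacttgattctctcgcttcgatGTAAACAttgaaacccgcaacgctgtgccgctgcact
Frmd4a, chr2:4387321-4387387, minus strand: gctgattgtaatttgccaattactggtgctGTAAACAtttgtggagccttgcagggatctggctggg
Sema5a, chr15:32236887-32236953, minus strand: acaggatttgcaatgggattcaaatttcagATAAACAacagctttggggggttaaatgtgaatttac
Epha3, chr16:63794046-63794112, minus strand: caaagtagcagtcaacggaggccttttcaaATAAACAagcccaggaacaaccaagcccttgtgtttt
Kalrn, chr16:34078935-34079001, plus strand: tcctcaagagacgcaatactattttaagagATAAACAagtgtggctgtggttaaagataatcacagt
Tgfbr3, chr5:107625196-107625262, minus strand: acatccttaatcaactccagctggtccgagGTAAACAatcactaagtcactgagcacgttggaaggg
Exoc6b, nearest to Cyp26b1, chr6:84607273-84607339, plus strand: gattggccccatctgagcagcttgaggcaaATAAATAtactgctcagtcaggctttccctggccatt
Dnm3 and Pigc, nearest to 4930558K02Rik, chr1:163950286-163950352, plus strand: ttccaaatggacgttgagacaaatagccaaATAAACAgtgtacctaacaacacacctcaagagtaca
Sorcs2, nearest to Psapl1, chr5:36467823-36467889, minus strand: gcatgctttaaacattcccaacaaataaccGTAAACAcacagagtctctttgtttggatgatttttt
Rin2, nearest to Naa20, chr2:145681315-145681381, plus strand: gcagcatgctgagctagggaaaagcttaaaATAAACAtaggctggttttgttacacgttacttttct

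In these sequences GTAAACA marked the Wdr37, Col4a3, Frmd4a, Tgfbr3 and Sorcs2 regions, and ATAAACA marked those in Sema5a, Epha3, Kalrn, Dnm3 and Rin2. The Exoc6b region carried ATAAATA, the variant that the flanks held nearly as often as the centres (below). Of the RUNX, E-box and TEAD motifs described below, a RUNX sequence stood in the Kalrn run, the E-box CAGCTG in that of Tgfbr3 and the E-box CATCTG in that of Exoc6b. The Sorcs2 run held the TEAD sequence GGAATG, which is read on the other strand there. A match describes the letters and is not evidence of a bound site.

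The intronic peak with the highest score was in Wdr37, which encodes a WD-repeat protein. It held 279 ChIP tags and 6 input tags at chr13:8828925-8829553, a deposited fold of 33.3 (exact 95% interval 15.1 to 91.6), and its score was 271. The score is the peak caller's own, without a unit, and here it only ranks peaks within the list. This peak lay 40.7 kb from a Wdr37 start in intron 11. Next came the peak in intron 2 of Col4a3, a basement-membrane collagen gene, with 180 ChIP and 11 input tags and a score of 179. The region in intron 2 of Frmd4a, which encodes a FERM-domain protein of cell polarity, had 174 ChIP and 12 input tags and a score of 176.

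Genes of cell guidance and transcription came among the next ranks. Sema5a, a semaphorin guidance gene, carried 177 ChIP against 8 input tags in its first intron, 40.1 kb from its start. Epha3, an Eph receptor tyrosine kinase gene, carried 163 against 9 tags in intron 2, 69.8 kb from its start. Meis2, a TALE homeobox gene in which human mutations cause cleft palate, carried 163 against 10 tags in intron 7. Unlike the regions printed above, the central 200 bp of the Meis2 peak held no forkhead sequence, and 1 lay elsewhere in the region. The Palm2 peak (143 ChIP and 5 input tags, first intron) likewise had 1 forkhead sequence outside its centre.

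Kalrn, a gene of a guanine nucleotide exchange factor, had 164 ChIP and 11 input tags in intron 34, at 17.0 kb from the nearest of its annotated starts. Tgfbr3, which encodes the TGF-beta coreceptor betaglycan, had 181 ChIP and 9 input tags in intron 3. The tenth by score was the single peak among the leading ones whose nearest start was not its host's. It lay in intron 19 of Exoc6b, an exocyst subunit gene, with 229 ChIP and 10 input tags and a fold of 16.4 (8.76 to 34.7). It was 163 kb from the Exoc6b start and 63.6 kb from the start of Cyp26b1, which encodes an enzyme that breaks down retinoic acid.

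As a group, the intronic peaks were weak to moderate and near the middle of the list. Their median was 30 ChIP tags (quartiles 19 and 55, range 14 to 322) and the deposited fold had a median of 12.9, with the caller's own minimum at 10. The whole list also had a median of 30 tags. In 519 peaks (32.4%) there were 20 ChIP tags or fewer, and 103 peaks had no input tag at all, so single weak peaks rest on few reads. Most regions, 1104 (68.8%), kept the 500 bp width of a single window, and the widest spanned 1715 bp.

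The peak with the most tags was chosen for mention after its values were seen. It held 322 ChIP and 18 input tags over 1673 bp, in intron 15 of A430107O13Rik, and its nearest start was that of Wnt16, 81.9 kb away, while the host start was 219.5 kb away. Its score of 56 was well below that of the narrower Wdr37 peak.

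Tag number differed little between the intronic peaks and other distal peaks. Above the list median lay 790 of the intronic peaks (49.3%), where 49.1% of all 9165 peaks did. The share was 50.2% for 1664 intergenic peaks 10 to 100 kb from a start, a difference of -0.93 percentage points (95% interval -4.35 to 2.498, two-sided Fisher exact test, adjusted p = 0.5998). For 528 intronic peaks beyond 100 kb it was 51.5% (-2.26 points, exact adjusted p = 0.591), and the sign turned among peaks at or above the median score (0.47 points). Peaks 1 to 10 kb from a start were above the median less often, at 41.4% of 1209, and that difference of 7.90 points (4.18 to 11.6) passed the test (exact adjusted p = 1.09e-04 over the 3 comparisons).

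**Figure D1:**
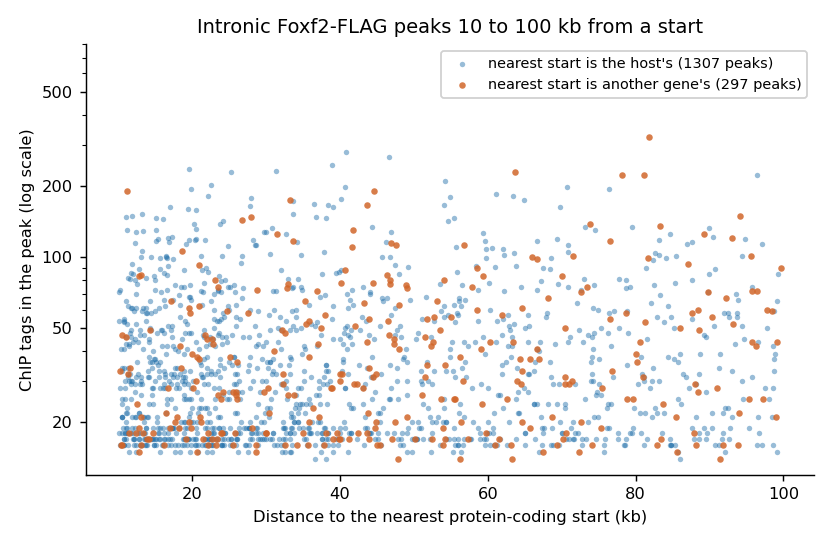
ChIP tags of each of the 1604 intronic peaks (log scale) against the distance to the nearest protein-coding start in kb, in blue where that start is the host's (1307 peaks) and in orange where it is another gene's (297 peaks). Tags ranged from 14 to 322, strong and weak peaks stand at short and long distances, and the medians of peaks at 10 to 20, 20 to 50 and 50 to 100 kb were 30, 29 and 32 tags.

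Peaks just inside and just outside the distance limits overlapped widely in tags. The 40 intronic peaks at 10 to 11 kb had a median of 24.5 tags (16 to 148) and the 49 just excluded at 9 to 10 kb had 34 (14 to 146). At the far limit, the 36 peaks at 95 to 100 kb had a median of 40.5 tags (15 to 222) and the 23 just excluded at 100 to 105 kb had 36 (17 to 98). Forkhead sequences were in the centres of 57.5% and 59.2% at the near limit and of 50.0% and 56.5% at the far limit, in the same order.

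The host and the nearest-start gene were the same for most, but not all, intronic peaks. They coincided in 1307 of 1604 (81.5%, Wilson 95% interval 79.5 to 83.3), and in 297 (18.5%) the nearest start belonged to another gene. Gene layout alone set a similar share, since 79.2% of the 507.5 Mb of sequence that met the same conditions had its host as the nearest-start gene. The lower end of the interval was 79.5%, so the excess over the sequence share was small. The sequence share was not computed for separate distance classes. Coincidence of host and nearest-start gene among peaks was 89.8% at 10 to 20 kb, 81.0% at 20 to 50 kb and 76.3% at 50 to 100 kb.

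The share of peaks whose host was the nearest-start gene also depended on annotated alternative starts, as did the share of sequence. In 919 of the 1307 (70.3%) the nearest host start was not the most 5′ one. With 1 start per gene, the share fell to 71.6%, beside 69.6% of sequence. With starts and exons of every gene type it was 64.8%, beside 62.7%.

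Where host and nearest-start gene differed, the place of the neighbour was limited by the layout, since a start upstream of the host's own 5′ start cannot be the nearer one. In 199 of the 297 peaks (67.0%) the nearest start was beyond the 3′ end of the host, in 74 (24.9%) it belonged to a gene nested in the host, and in 24 (8.08%) the start lay in the host and the gene reached out of it. The same shares over all sequence that met the conditions were not computed. These peaks were a median of 45.04 kb from the nearest start and 104.2 kb from the host's own nearest start. In 153 (51.5%) the host start was more than 100 kb away.

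**Figure D2:**
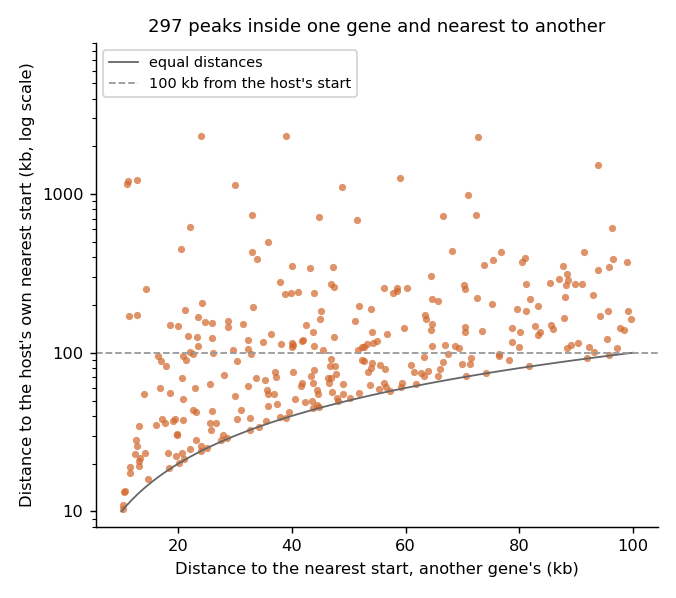
Distance to the host's own nearest start (kb, log scale) against distance to the nearest start (kb) for the 297 intronic peaks whose nearest-start gene is not the host, with 1 point per peak, a solid line at equal distances and a dashed line at 100 kb. All points lie above the solid line by construction, and 153 lie above the dashed line.

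Counted over genes, 1174 genes hosted at least 1 intronic peak, which was 10.3% of the 11383 genes with sequence that met the conditions. As nearest-start gene 1215 appeared, 8.92% of 13626. Both roles were filled by 990 genes, 84.3% of the hosts and 81.5% of the nearest-start genes. Assigning peaks by host alone would therefore name 184 genes that the nearest start does not, and assigning by nearest start 225 that the host does not. Hosts were long, with a median of 137 kb against 41.5 kb for all genes with such sequence.

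The highest-scoring peaks with another nearest-start gene, after that in Exoc6b, were spread over genes of many kinds. In Pgm5, a phosphoglucomutase-like gene, a peak of 113 ChIP and 7 input tags was nearest to E030010A14Rik, at 56.8 kb. In 9130011E15Rik a peak of 125 against 6 tags was 31.5 kb from Kcnip2, a potassium-channel interacting protein gene. In Vps53, a gene of endosome-to-Golgi transport, 115 against 5 tags lay 46.9 kb from Fam101b, an actin regulator gene. All of these neighbours started beyond the 3′ end of the host.

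Bre held a peak of 139 against 7 tags that was nearest to Gm10463, and Fggy one of 100 against 6 tags nearest to Hook1, whose product links cargo to microtubules. The Map4k3 peak (99 against 6 tags) was almost as far from its host's start, 82.6 kb, as from the start of Cdkl4, 81.7 kb. For this peak the distances to host and neighbour were nearly equal. In Astn2, by contrast, 98 against 6 tags lay 732.6 kb from the host start and 66.6 kb from Trim32, a ubiquitin ligase gene nested in Astn2. Palld had 111 against 7 tags nearest to Cbr4, and 2310046A06Rik 90 against 5 tags nearest to Tinag.

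A promoter peak, defined as a peak centre within 1 kb of a start, was looked for at both genes of each pair. Such peaks are other rows of the list, since every intronic peak described lay more than 10 kb from any protein-coding start. Over 251 distinct pairs, 52 hosts (20.7%) and 43 nearest-start genes (17.1%) had one, with 36 pairs where only the host and 27 where only the neighbour had it. The difference did not pass the test (two-sided exact McNemar test, p = 0.314). A host with several neighbours, such as Gm20388 or Fgfr2, entered several pairs, so the pairs are not all independent. Without hosts longer than 2.5 Mb the difference was 2 pairs (exact p = 0.894). The direction of the difference turned at a deposited fold of at least 15 (-5 pairs, exact p = 0.302). With starts and exons of every gene type it was 79 pairs (exact p = 5.14e-14). That setting compares unlike genes, since only 78.1% of the nearest starts were then those of protein-coding genes, while all hosts were protein-coding. The part of gene type in the 79 pairs was not tested. The main shares of 20.7% and 17.1% were above the 11.3% of all 22367 protein-coding genes with a promoter peak. Hosts that were also the nearest-start gene had one in 238 of 989 cases (24.1%), and genes with sequence that met the conditions in 15.9%.

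Peaks were spread over many hosts, and 889 of the 1174 hosts held 1 each. At least 3 were held by 92 hosts, which together had 352 peaks. The largest counts belonged to annotation spans rather than to compact genes. Gm20388 (chr8:122434741-126869622) was annotated over 4.43 Mb across many other genes and contained 16 peaks, none of them nearest to its own start. The nearest starts were those of the forkhead genes Foxf1a and Foxc2 and of Ankrd11, Cbfa2t3 and others. Fgfr2, the gene of a fibroblast growth factor receptor, was annotated over 3.01 Mb and contained 14 peaks, of which 4 were nearest to an Fgfr2 start. The other 10 were nearest to Tacc2, Htra1, Dmbt1, Gpr26, Cpxm2, Chst15, Fam53b or Ctbp2.

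Within the Gm20388 span, a 1364 bp peak of 190 ChIP and 8 input tags was 11.1 kb from Foxc2, a forkhead gene of mesenchyme and vessels. A peak of 46 against 2 tags was 11 kb from Foxf1a, the closest relative of Foxf2. The peaks nearest to Fgfr2 starts held 18, 30, 46 and 52 ChIP tags against 1, 1, 2 and 3 input tags. They lay 88.6, 32.7, 17.2 and 63.6 kb from those starts. All were below 55 tags, the upper quartile of the intronic peaks. Without these 2 spans as hosts there were 1588 intronic peaks, and 82.1% had the host as nearest-start gene, beside 79.5% of sequence.

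Dnm3, a dynamin gene of membrane scission on chromosome 1, had 12 peaks, or 3.56 per 100 kb of sequence that met the conditions. They fell in separate groups along the gene. Toward its 3′ end, 8 peaks with 19 to 190 tags were nearest to 4930558K02Rik, and 6 of these also lay in the span of Pigc, a gene of glycolipid anchor synthesis. The other 4 were nearest to Dnm3 starts and held 97, 105, 73 and 43 ChIP tags against 6, 6, 5 and 3 input tags. The first 3 lay around Dnm3os, a non-coding transcript on the opposite strand (chr1:164147754-164155681) that contains the microRNA genes Mir199a-2 and Mir214. The 97-tag peak was 4.42 kb upstream of the Dnm3os start, the 105-tag peak was inside it, 1.39 kb past the start of Mir214, and the 73-tag peak was 19.3 kb from its start. A rule limited to protein-coding starts assigns all of them to Dnm3.

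Tgfbr3 had the densest peaks of the 10 leading hosts other than Pigc, at 4.04 per 100 kb of sequence that met the conditions. The gene spans 183 kb and held 6 peaks, and all were nearest to its own starts. From 5′ to 3′ they held 119, 102, 63, 181, 87 and 50 ChIP tags against 8, 7, 4, 9, 3 and 3 input tags. Each was above the median of 30 tags, and 4 of 6 had a forkhead sequence at the centre. Tcf4, an E-protein gene on chromosome 18, had 8 peaks of 17 to 132 tags, of which 7 lay together 62.5 to 92.1 kb from a start in intron 3, and the strongest stood alone in intron 8. The other leading hosts, each with 6 peaks, were Palld, which encodes the actin-bundling protein palladin (17 to 126 tags), Rbms3, an RNA-binding protein gene (20 to 81), Rere, a nuclear receptor cofactor gene (14 to 47), and Igf1r, the insulin-like growth factor receptor gene (17 to 236).

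**Figure D3:**
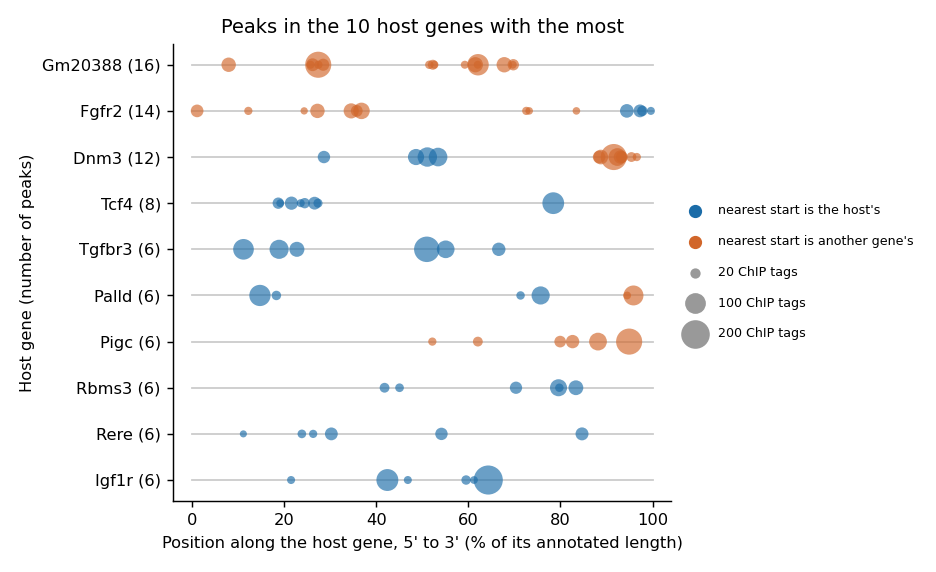
Peaks in the 10 hosts with the most (count in brackets), by position along the host from 5′ to 3′ in percent of its annotated length, with circle area in proportion to ChIP tags. Orange circles, nearest to another gene's start, make up all 16 in Gm20388 and all 6 in Pigc, while the 6 in Tgfbr3 and the 8 in Tcf4 are all blue, nearest to the host's start.

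Among pairs, Dnm3 with 4930558K02Rik had the most peaks, 8, and Pigc with the same neighbour had 6 of these. Sorcs2, a sorting-receptor gene, had 5 peaks of 16 to 75 tags that were all nearest to Psapl1, a gene nested in it, at 17.9 to 82.9 kb. Rin2, a Rab5 exchange factor gene, had 3 peaks of 37 to 84 tags nearest to Naa20, an N-terminal acetyltransferase subunit gene. Of these hosts and neighbours, none had a promoter peak, and of the pair Gm20388 and Foxc2, Gm20388 had one and Foxc2 did not.

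The forkhead sequence, which the conditions did not use, was found at the centres of most intronic peaks. It is written here as GTAAACA or ATAAACA or GTAAATA or ATAAATA on either strand. In the central 200 bp it was present in 847 of 1604 peaks (52.8%, 50.4 to 55.2), and in windows of the same width 2000 bp upstream of the same peaks in 308 (19.2%, 17.4 to 21.2). The ratio was 2.75 (two-sided exact McNemar test, adjusted over 24 motifs, p = 7.59e-88). Over all 9165 peaks, which include promoter peaks rich in G and C, the share at the centre was 40.8%. Over the whole width of each region, 316 intronic peaks (19.7%) had none, 617 had 1, 373 had 2 and the most in a region was 20.

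**Figure D4:**
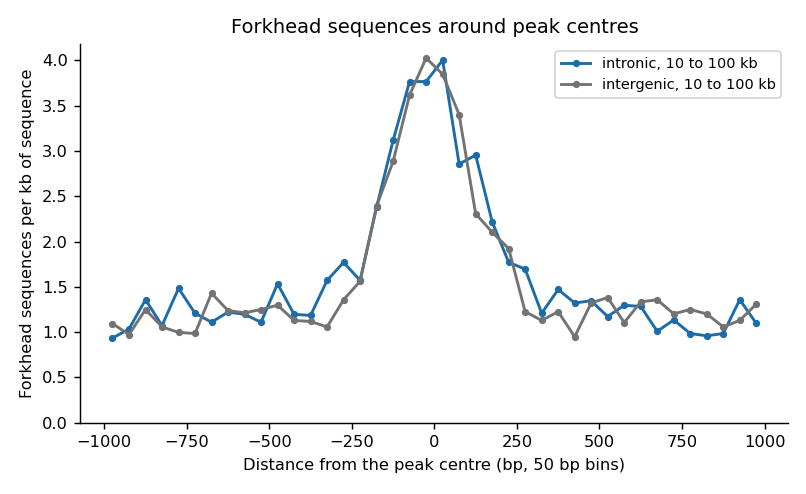
Forkhead sequences per kb in 50 bp bins around the peak centre (bp), for the 1604 intronic peaks (blue) and the 1664 intergenic peaks 10 to 100 kb from a start (grey). The intronic line reaches 4.002 per kb in the bin just past the centre and the intergenic line 4.026 in the bin just before it, and both fall off on either side.

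The 4 variants differed in how strongly they marked the centres. GTAAACA was in 18.4% of centres and 2.56% of flanks, a ratio of 7.195 (exact adjusted p = 8.25e-51). ATAAACA was in 26.8% against 6.42%, a ratio of 4.17 (exact adjusted p = 1.69e-55), and GTAAATA in 8.11% against 3.49%, a ratio of 2.32 (exact adjusted p = 1.16e-07). ATAAATA was in 9.60% against 8.85% and did not pass the test (ratio 1.09, exact adjusted p = 0.636). The forkhead letters read backwards, a control of like composition that shares ATAAATA with them, were in 25% against 21.3% (ratio 1.17, exact adjusted p = 0.0326). Base composition was alike, with 43.3% G and C at centres and 43.6% in flanks.

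Of the 24 motifs searched, which overlap in part, 10 (41.7%) were more frequent at centres than in flanks at an adjusted p below 0.05, and 1 (4.17%) was less frequent. Beside the forkhead sequences these were motifs of other factor families. RUNX sequences, TGTGGTTA or TGTGGTTT, bound by the family of the bone regulator Runx2, were in 4.80% of centres and 2.18% of flanks (ratio 2.20, exact adjusted p = 2.25e-04; 3.25% of all peaks). The E-box CATCTG was in 21.6% against 15.2% (ratio 1.42, exact adjusted p = 1.39e-05; 16.1% of all peaks). The E-box CAGCTG was in 14.2% against 9.10% (ratio 1.56, exact adjusted p = 3.51e-05; 11.8% of all peaks). E-boxes are bound by basic helix-loop-helix factors such as Twist1 and the E-protein Tcf4. Intergenic peaks 10 to 100 kb from a start also held these motifs more often at centres than in flanks. The shares were 4.387% against 2.224% for RUNX, 18.81% against 14.72% for CATCTG and 12.44% against 8.894% for CAGCTG. Their higher share at centres was thus not limited to intronic peaks, and the difference between intronic and intergenic peaks was not tested.

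Smaller differences passed for GGAATG, the TEAD sequence of the Hippo pathway (12.6% against 9.98%, exact adjusted p = 0.0396), and for ACAAACA, another forkhead variant (11.3% against 8.60%, exact adjusted p = 0.0326). The backwards control passed at the same adjusted p as ACAAACA and differed by more percentage points than either. GATA sequences, written as AGATAA or AGATAG or TGATAA or TGATAG, were less frequent at centres, 29.2% against 33.4% (ratio 0.877, exact adjusted p = 0.0326). SOX sequences, AACAAAG or AACAATG, were in 11.6% against 9.41% and did not pass (exact adjusted p = 0.106). Without matches that overlapped a forkhead sequence the SOX values were 8.42% and 8.98%.

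The other motifs did not pass either. They were the AP-1, homeobox, MEIS, nuclear receptor, AP-2, SP/KLF, TCF/LEF, ETS and GLI sequences and those of CTCF and the full NFI site. CTCF matched 11 centres and 6 flanks, and the full NFI site matched none, which allows a share of up to 0.239% (Wilson 95% interval).

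**Figure D5:**
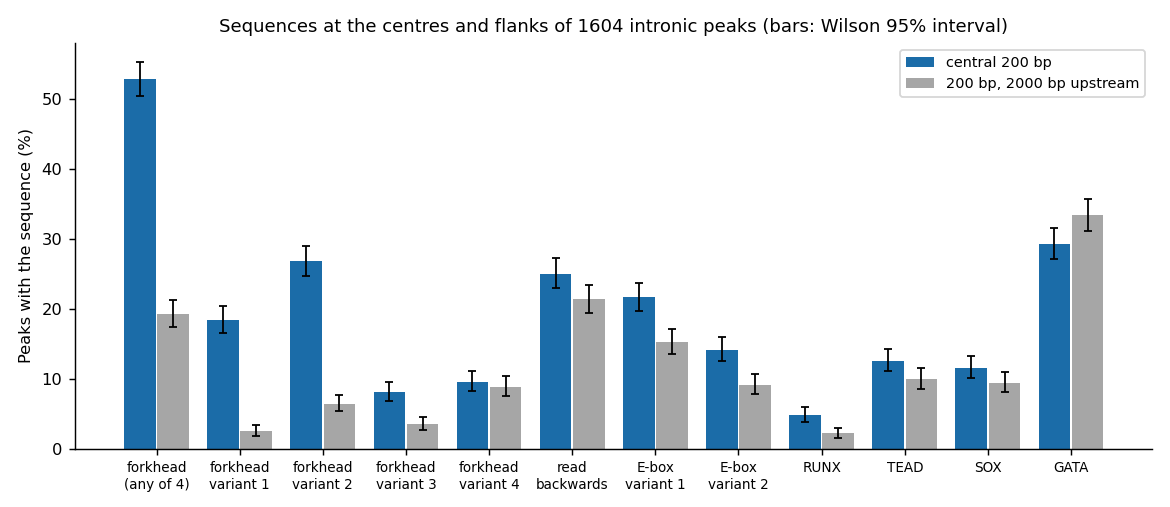
Share of the 1604 intronic peaks (%) with each sequence in the central 200 bp (blue) and in 200 bp centred 2000 bp upstream (grey), with Wilson 95% intervals as error bars. Forkhead variant 1 is GTAAACA, variant 2 is ATAAACA, variant 3 is GTAAATA and variant 4 is ATAAATA, while E-box variant 1 is CATCTG and variant 2 is CAGCTG. Forkhead sequences as a group reach 52.8% against 19.2%, and GATA is the single motif shown with the lower bar at the centre.

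Intronic peaks in the class with the most tags held the forkhead sequence more often than those in the class with the fewest. In 5 classes of tag number the share was 39.7% at 14 to 18 tags, 46.8% at 19 to 25, 58.6% at 26 to 37, 56.1% at 38 to 62 and 65.9% (60.5 to 71.0) at 63 to 322. Distance made little difference, with 52.1% at 10 to 20 kb, 53.9% at 20 to 50 kb and 52.0% at 50 to 100 kb. The sequence was on the strand of the host in 386 of 832 peaks with a forkhead sequence and a host strand that could be stated (46.4%, 43.0 to 49.8), and in the flanks in 122 of 299 (40.8%).

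Intronic and intergenic position went with nearly the same share. Intergenic peaks 10 to 100 kb from a start had a forkhead sequence in 51.0%, a difference of 1.84 points (-1.58 to 5.26, exact adjusted p = 0.441), and intronic peaks beyond 100 kb in 53.6%, a difference of -0.79 points (-5.67 to 4.12, exact adjusted p = 0.763). These intervals leave room for differences of a few points in either direction, and both signs turned among peaks at or above the median score (-0.97 and 2.12 points). Peaks 1 to 10 kb from a start had it in 44.0%, which was 8.80 points fewer (5.07 to 12.5, two-sided Fisher exact test, adjusted p = 1.20e-05). That difference did not pass at a deposited fold of at least 15 (8.18 points, exact adjusted p = 0.0586) or for GTAAACA alone (1.601 points, exact adjusted p = 0.505). The flanks differed in the same direction, at 19.2% for the intronic peaks and 15.9% for peaks 1 to 10 kb from a start. Ratios of centre to flank were therefore close, 2.75 and 2.77. Median G and C at the centres was 43.0% and 46.0%, and its part in the difference was not tested.

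Peaks whose host was the nearest-start gene carried the forkhead sequence more often than the others. The shares were 54.7% of 1307 and 44.4% of 297, a difference of 10.3 points (3.96 to 16.4, two-sided Fisher exact test, p = 0.00158). In the flanks of the same peaks they were 19.4% and 18.2%. Base composition moved with this split, since the centres held 42.9% and 45.3% G and C, and its part in the result was not tested. The difference did not pass for GTAAACA alone (18.8% and 16.5%, exact p = 0.407), in the central 100 bp (5.08 points, p = 0.0945), or with starts and exons of every gene type (3.61 points, p = 0.193).

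First introns held 419 of 1610 placements of a peak in the longest transcript of a host (26.0%, 23.9 to 28.2). Sequence that met the conditions was in first introns for 23.8%. Second introns held 271 (16.8%). The introns were long, with a median of 35.4 kb, and the median distance to an exon was 7.76 kb. In first introns the host was the nearest-start gene for 92.7% of peaks and in other introns for 78.0%, while forkhead shares were 53.3% and 53.1%. How often sequence in first and in other introns had its host as nearest-start gene was not computed, so layout may set that contrast.

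Along the genome, the autosomes held 3.24 intronic peaks per Mb of sequence that met the conditions (3.08 to 3.41). Chromosome 12 had 1.78 (1.25 to 2.45) and the X chromosome 1.49 (1.04 to 2.09). Within 10 kb of another peak of the list lay 225 intronic peaks (14.0%), so neighbouring regions are not all independent.

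Gene lists that fit the palate were read against the share of hosts among all genes, 10.3%, and against 3.16 intronic peaks per Mb. The lists were chosen with earlier results of these data known, so higher values in them are a description and not independent support. The share of hosts also takes no account of gene length. All 11383 genes had 507.5 Mb of sequence that met the conditions, and the 27 palate regulators below had 2.71 Mb. Among 27 palate regulators with sequence that met the conditions, 12 were hosts, with 9.22 peaks per Mb. The strongest were in Meis2, in Gli2 (130 ChIP and 8 input tags, 74.6 kb from its start), in the zinc-finger gene Bnc2 (75 and 4 tags) and in Arid5b, a chromatin cofactor gene with 5 peaks, of which the highest-scoring held 127 and 9 tags. The bone regulator gene Runx2 held 1 peak of 23 and 1 tags.

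Hedgehog genes were hosts in 6 of 17, with 8.98 peaks per Mb. The signal transducer Gli2 and Ptch1, the hedgehog receptor and pathway target, had the highest-scoring peaks, and the Ptch1 peak held 148 and 9 tags just past the near limit, at 10.96 kb. Gli3 held 41 and 2 tags, and Sufu, a Gli inhibitor gene, 33 and 2 tags in the stronger of its 2 peaks by score. In the TGF-beta and BMP list 7 of 30 were hosts with 6.86 per Mb, or 4.23 without Tgfbr3. The ligand genes Bmp6 (49 and 3 tags) and Bmp5 (20 and 1) and the inhibitor gene Smad6 (33 and 1) came next. Tgfbr2, the signalling receptor gene, held a weak peak of 15 and 1 tags.

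In the FGF list 4 of 20 were hosts with 5.37 peaks per Mb, but 2.31 without the long Fgfr2 span, which is below the 3.16 overall. The ligand gene Fgf7 held 51 and 2 tags, and the ligand gene Fgf10 and the inhibitor gene Spred2 16 and 1 each. In the Wnt list 11 of 39 were hosts with 7.39 per Mb, led by the receptor genes Ror1 (91 and 6 tags) and Lrp5 (138 and 8), the secreted antagonist gene Frzb (73 and 5) and the kinase gene Tnik (75 and 4). In the list of IGF, PDGF, other receptor kinase and retinoid genes 9 of 25 were hosts with 9.28 per Mb, or 6.91 without Igf1r. Aldh1a2, which encodes a retinoic acid synthesis enzyme, held 101 and 7 tags, and the insulin receptor substrate gene Irs1 93 and 5. This Irs1 peak was nearest to the start of another gene. Egfr, the epidermal growth factor receptor gene, held 86 and 6, and Met, the hepatocyte growth factor receptor gene, 88 and 1.

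Matrix genes were hosts in 30 of 58 cases, with 8.23 peaks per Mb. The laminin gene Lama4 (114 and 8 tags), the collagen gene Col25a1 (90 and 6), the glypican gene Gpc3 on the X chromosome (65 and 2) and the fibrillin gene Fbn1 (57 and 4) led. Of 52 adhesion and guidance genes 22 were hosts, with 5.02 per Mb, among them the teneurin gene Odz3 (122 and 5 tags) and Ptprm, a receptor phosphatase gene (93 and 4), beside Sema5a and Epha3. Of 60 transcription factor and cofactor genes, many of them long, 34 were hosts with 7.84 per Mb, including the forkhead genes Foxo3 (134 and 7 tags) and Foxp2 (91 and 6).

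Lists of markers of other cell types were short. None of 12 muscle genes held a peak in 1.16 Mb of sequence that met the conditions. Of 17 epithelial genes 1 did (5.88%, Itga6, with 62 and 2 tags), at 1.16 per Mb of 0.861 Mb. Of 11 blood genes 1 did (9.09%, Fli1, also in the endothelial list), at 2.32 per Mb of 0.431 Mb. Beside 10.3% of all genes and 3.16 per Mb, such counts are small, and a difference from all genes was not tested. The neural and endothelial lists, by contrast, had shares of hosts above 10.3%. Of 22 neural genes 7 were hosts (31.8%), though at 1.96 peaks per Mb. They were led by the growth cone gene Gap43 (59 and 4 tags), the splicing factor genes Rbfox1 (38 and 2) and Rbfox3 (37 and 2) and the synaptic gene Nrxn3 (28 and 2). Of 16 endothelial genes 5 were hosts (31.25%) with 6.42 per Mb, or 4.71 without Ets1. They were the ETS factor genes Erg (229 and 15 tags), Ets1 (73 and 5) and Fli1 (46 and 2), the receptor phosphatase gene Ptprb (37 and 2) and the cadherin gene Cdh5 (20 and 1). The pooled shelves can hold these cells, so tags of mesenchyme and of vessels cannot be told apart.

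Counted by gene, the choice between host and nearest start changed few entries of these lists. Of 143 list genes that were hosts and 147 that were nearest-start genes, 136 were both. The peaks of a gene in both roles could still differ. Irs1 hosted 3 peaks, but was nearest only to 1 of 19 and 1 tags, and its 93-tag peak was nearest to another gene. Fgfr2 hosted 14 and was nearest to 4. The 11 that were nearest-start genes only and the 7 that were hosts only fall in part outside the rule for named genes and were named with their values in view. Several of the nearest-start genes could hardly be hosts. Foxf1a, and Fzd1, Spry1 and Nr2f1 below, had no sequence that met the conditions. Cyp26b1 had 3.26 kb, Pax9 4.01 kb and Flrt3 6.95 kb, and the others had 10.7 (Tgfb3) to 57.3 kb (Fbln5). For Pax9, a paired-box gene needed for palate and teeth, a peak of 77 ChIP and 5 input tags lay 32.9 kb from its start in an intron of Slc25a21. Cyp26b1 was reached from Exoc6b, as given above, and Foxf1a from the Gm20388 span.

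Signalling genes made up several of the others. Fzd1, a Wnt receptor gene, was nearest to 2 peaks in Cdk14, the higher-scoring of which held 67 ChIP and no input tags at 68.1 kb. Wnt2 was 99.1 kb from a peak of 44 and 3 tags in St7, at the far limit. Spry1, an FGF feedback inhibitor gene, was 83.7 kb from one of 24 and 0 tags in Spata5, and Etv5, an FGF-responsive factor gene, 64.7 kb from one of 20 and 1 tags in Dgkg. Tgfb3, a ligand gene needed for palatal fusion, was 87.9 kb from one of 18 and 1 tags in Ttll5. These last 3 peaks were among the weaker of the intronic peaks.

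Nr2f1, a nuclear receptor gene, was 96.4 kb from a peak of 72 and 5 tags in Fam172a, Fbln5, an elastic-fibre gene, 32.3 kb from one of 32 and 2 tags in Trip11, and Flrt3, an adhesion gene, 98.95 kb from one of 21 and 1 tags in Macrod2. Hosts only were the activin receptor gene Acvr2a (20 and 1 tags), Fbn1, Col4a1 (16 and 1), the integrin gene Itga1 (17 and 1), the factor genes Ebf2 (35 and 2) and Meis1 (20 and 1), and Igf2r (40 and 2), which encodes a receptor that clears IGF2. Apart from Fbn1, the highest-scoring peak of each of these hosts held 40 tags or fewer.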

How the data were processed

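Per the submitters' processing notes, reads were handled with Bowtie 1.0.0, SAMtools 0.1.19 and HOMER (version not given in the sources used here) on mm9. Per the file headers, peaks were called once, ChIP against input, in 500 bp windows stitched into regions, with at most 1 tag per position, a fragment length of 112 bp, and a required fold of 10 at a p-value of 0.0001 against both input and the surrounding 10000 bp. Weak or broad binding that failed the local fold was thus lost. The deposited signal was ChIP tags per 10000000, which was turned back into whole tags (within 0.134). The deposited signal columns also held ChIP tags scaled to the input, and input tags with 0.5 where there were none. The deposited fold is their ratio, the deposited score and p-value are the peak caller's own, and what the input library deposited separately was not analysed here.

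Coordinates are those of the file, on mm9, with NCBIM37 sequence and GENCODE vM1 genes. Sequence shares were counted over every base that met the conditions, outside assembly gaps. Motifs were searched on both strands and compared with two-sided exact McNemar tests, shares with two-sided Fisher exact tests, adjusted by Benjamini-Hochberg, and fold intervals are conditional on the tags. Python 3.11.15, numpy 2.4.6, scipy 1.17.1, pandas 2.3.3 and matplotlib 3.10.9 were used, and the search and tests were checked on simulated data. Of 497 entries in 14 gene lists, 496 matched a gene. Named genes were those of the 10 highest-scoring intronic peaks, the 10 hosts with the most peaks, the 10 highest-scoring peaks with another nearest-start gene, the 5 leading pairs and the 4 leading hosts of each list. Genes outside that rule were picked with their values in view. The peaks, lists and tests were chosen with earlier results of these data known. Other peak thresholds, gene sets, distance limits and windows were tried. Single-gene values of some list members are left out here.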

Additional observations from a re-analysis of the deposited data

How the results depend on the processing

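Of 85 recomputed values, 67 kept their direction and their side of the threshold, or stayed within their range. Only peaks at or above the median score left 796 intronic peaks, turned the forkhead difference to intergenic peaks to -0.97 points and that to intronic peaks beyond 100 kb to 2.12, and the tag difference to the latter to 0.47. A fold of at least 15 left 481 peaks, put the host as nearest-start gene in 78.0%, turned the promoter count of hosts minus neighbours from 9 to -5 (exact p = 0.302), and gave 8.18 points over peaks 1 to 10 kb from a start. With starts and exons of every gene type, changed together, the host share was 64.8% and the forkhead difference by host was 3.61. The promoter count was then 79 (exact p = 5.14e-14), with neighbours among the pairs that were not protein-coding. The host share was 71.6% with 1 start per gene and 78.9% from 20 kb on. A central window of 100 bp gave 5.08 points by host. GTAAACA alone gave -0.84 against intergenic peaks, 1.601 against peaks 1 to 10 kb and 2.32 by host. The SOX ratio of 1.23 became 0.938 without forkhead overlaps. The cause of these changes was not tested. Leaving out hosts longer than 2.5 Mb was chosen after seeing the data and changed none of the 12 calls or ranges it was run on. The promoter count nevertheless fell from 9 to 2 there. With 1 library no replicate could be left out. No paired analysis was possible because there was 1 ChIP and 1 input library.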
